A study of Mus musculus with 18 samples.

Results

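A set of 10 genes of blood vessel growth and of the vessel wall were followed through ultraviolet skin carcinogenesis, namely 4 ligands (Vegfa, Pgf, Vegfc and Angpt2), 4 receptors (Flt1, Kdr, Nrp1 and Tek) and 2 genes of endothelial junctions (Pecam1 and Cdh5). They were taken by symbol, with no threshold on a value, and each of the 10 had 1 entry among the 14521 named genes of the table. RNA came from skin of 6 female littermate SKH-1E mice, an outbred hairless strain, which were irradiated with solar simulators from 3 months of age and carried no transgene that the sources name. Tumour-free, chronically irradiated skin (CHR), 1 papilloma (PAP, a benign epidermal outgrowth) and 1 squamous cell carcinoma (SCC) came from every animal, so that all 3 groups shared the irradiation and unirradiated skin was not analysed here. Papillomas and carcinomas were of grade 1 or 2. Reads counted on the entries of the table, as recovered from the deposited values, numbered 15.4 to 21.0 M per library (18 libraries, median 18.9 M). They are not the full sequencing yield.

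VEGF-A and placental growth factor are secreted proteins that bind the receptor tyrosine kinase VEGFR1, encoded by Flt1, and VEGF-A also binds VEGFR2, encoded by Kdr, which carries most of the growth signal into endothelial cells. VEGF-C acts mainly on lymphatic endothelium, and neuropilin 1 is a co-receptor for VEGF-A that many other cells also carry. TIE2, encoded by Tek, is kept active by angiopoietin 1 and is antagonised in many settings by angiopoietin 2, while PECAM-1 and VE-cadherin (Cdh5) hold endothelial cells together. In mouse skin tumours, VEGF-A made by the keratinocytes themselves is known to promote growth.

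Proximal promoters are shown for the ligand with the most reads (Vegfa), for its main signalling receptor (Kdr) and for the receptor of the angiopoietins (Tek), because these 3 genes went different ways in the tumours. Each is the 250 bases before the RefSeq start of transcription on GRCm38, 5′ to 3′ on the strand of the gene, with capitals for an ETS core (CCGGAA or CAGGAA, the element of endothelial ETS factors), an Sp1 box (GGGCGG) or a HIF core (ACGTG or GCGTG, the element of hypoxia-inducible factors) on either strand. Vegfa lies at chr17:46032378-46032627 on the minus strand, Kdr at chr5:75978456-75978705 on the minus strand and Tek at chr4:94739039-94739288 on the plus strand.
Vegfa: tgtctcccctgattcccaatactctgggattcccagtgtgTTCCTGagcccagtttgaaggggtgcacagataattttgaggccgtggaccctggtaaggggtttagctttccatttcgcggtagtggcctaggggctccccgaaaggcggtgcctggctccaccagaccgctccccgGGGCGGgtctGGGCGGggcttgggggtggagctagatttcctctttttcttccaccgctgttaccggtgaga
Kdr: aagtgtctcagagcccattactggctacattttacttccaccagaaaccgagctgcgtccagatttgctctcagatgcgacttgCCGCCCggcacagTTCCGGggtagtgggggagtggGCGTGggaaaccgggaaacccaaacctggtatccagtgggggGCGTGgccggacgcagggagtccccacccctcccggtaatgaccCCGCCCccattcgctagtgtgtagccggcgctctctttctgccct
Tek: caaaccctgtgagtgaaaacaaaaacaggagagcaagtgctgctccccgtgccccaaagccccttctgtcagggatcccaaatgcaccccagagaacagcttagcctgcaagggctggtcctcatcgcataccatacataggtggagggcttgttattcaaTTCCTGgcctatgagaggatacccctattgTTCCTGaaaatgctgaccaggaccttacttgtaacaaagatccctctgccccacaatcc
The genes themselves span chr17:46016993-46032369 (Vegfa), chr5:75932827-75978458 (Kdr) and chr4:94739289-94874976 (Tek) in GENCODE. Elsewhere on GRCm38 lie Pgf at chr12:85166635-85177790, Vegfc at chr8:54077606-54187096, Angpt2 at chr8:18690263-18741562, Flt1 at chr5:147561604-147726011, Nrp1 at chr8:128358604-128503363, Pecam1 at chr11:106654217-106750628 and Cdh5 at chr8:104101625-104144511. The Vegfa window shown held 1 ETS core, 2 Sp1 boxes and 0 HIF cores at 59.2% GC, the Kdr window held 1 ETS core, 2 Sp1 boxes and 2 HIF cores at 61.6% GC, and the Tek window held 2 ETS cores and neither of the other elements at 51.2% GC. RefSeq lists a further start of Vegfa inside the gene, whose window (chr17:46025164-46025413, not shown) held 2 HIF cores, 0 ETS cores and 1 Sp1 box at 59.6% GC. Of 32851 promoter windows of the same length in the mouse, 35.1% held an ETS core, 32.7% an Sp1 box and 38.6% a HIF core. An AP-1 site (TGANTCA), present in 6.75% of all windows, was found in none of the 3 windows shown. RefSeq windows were matched for 7 of the 10 genes, and these matches describe letters only.

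The levels below are normalised read counts, that is, reads recovered from the deposited values and divided by the size factor of the library. Folds on the log2 scale, their SE and adjusted p-values came from limma on log2(value + 1) with the mouse as a block. Benjamini-Hochberg adjustment ran over all 14521 genes, and a gene was called at an adjusted p under 0.05. Plain folds are geometric means over mice of within-mouse ratios of normalised reads. They are not the antilog of the log2 changes, because the deposited scale compresses low counts. Because the samples are bulk tissue, fewer cells of a type and less RNA per cell cannot be told apart in any of them. Tissue other than epidermis differed among the groups (plot of summed marker counts). Summed counts of 10 skeletal muscle markers were 388387 to 585778 in CHR, 162 to 28950 in PAP and 386 to 193160 in SCC, and all 10 were lower in both kinds of tumour than in CHR. Of 7 adipocyte markers, 7 were lower in PAP and in SCC than in CHR (sums of 5099 to 14924 in CHR, 7.34 to 451 in PAP and 2.69 to 2167 in SCC), and 6 of them were at 0 reads in at least 1 library of each tumour group. Of 8 keratinocyte markers, 6 were higher and 1 was lower in PAP than in CHR, with sums of 423849 to 839837 in CHR, 630181 to 1154183 in PAP and 199403 to 749328 in SCC. The tumours of mouse 10 stood apart. Its papilloma had a summed count of 4783 for 7 dermal fibroblast markers against 52798 to 160770 in the other papillomas, and its carcinoma had 17216 for the same markers against 119944 to 496273 and 386 for muscle against 71978 to 193160.

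**Figure D1:**
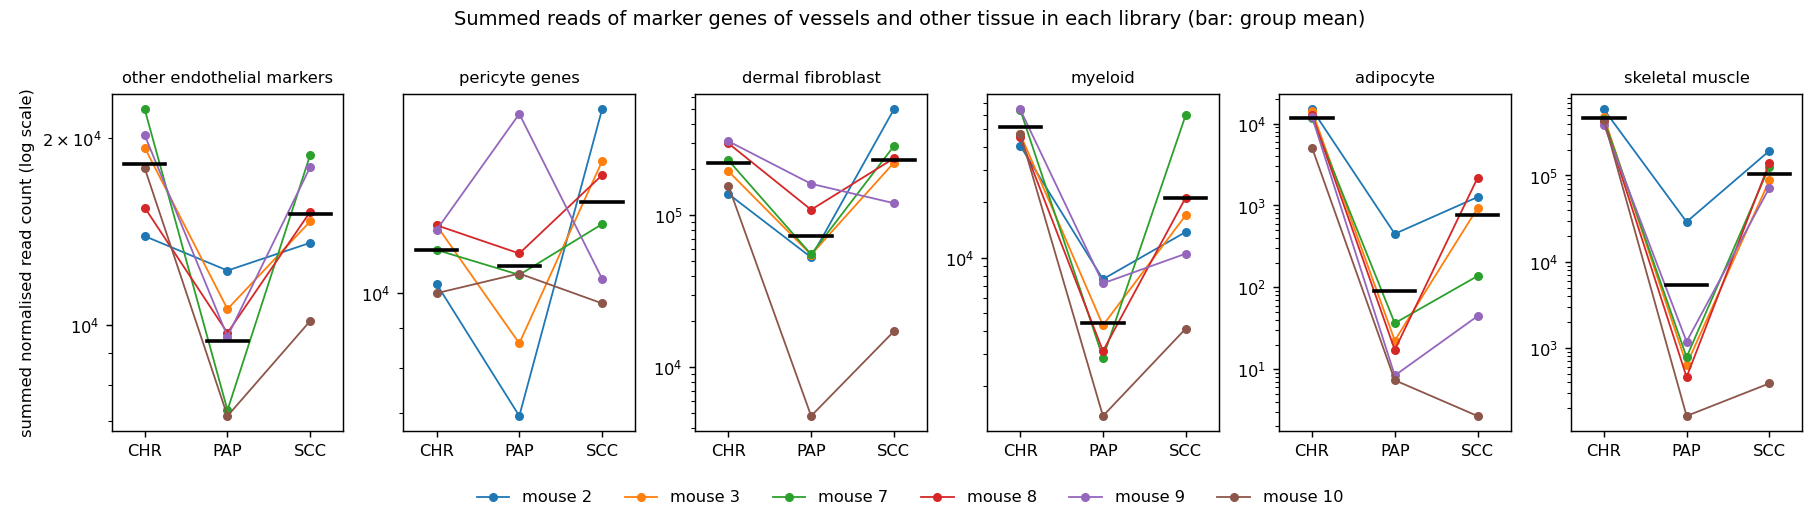
Summed normalised read counts (log scale) of 6 marker lists in CHR, PAP and SCC, 1 line for each of 6 mice and a black bar for the group mean. Muscle and adipocyte markers were lower in every tumour than in the skin of the same mouse, and for muscle the carcinoma of mouse 10 (386) fell within the range of the papillomas.

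The first comparison asked what accompanies the step from irradiated skin to benign tumour. Of the 10 genes, 7 were called in PAP vs CHR, where 52.6% of all genes were called. The 4 that rose were Vegfa, Pgf, Angpt2 and Flt1 (23.3% of all genes rose), and the 3 that fell were Nrp1, Tek and Pecam1 (29.3% of all genes fell). The share of 70% is above the background, but with 10 genes it rests on few. The median log2 fold change was 0.09 over the 10 genes and 0.00 over all genes, while the median size without its sign was 0.82 and 0.41.

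Among the ligands, Vegfa had the most reads. In CHR it stood between 878 and 1857 (median 1189, n = 6), in PAP between 5850.4 and 13244 (median 9605) and in SCC between 2958 and 6569 (median 4271). The lowest papilloma was above the highest skin sample, and every carcinoma was above every skin sample too. Vegfa was 7.40-fold higher in PAP than in CHR within mice (geometric mean of normalised reads, range 3.81 to 13.4). Its log2 change in limma was 2.81 ± 0.20 (SE) with an adjusted p of 6.64e-07. It then fell from papilloma to carcinoma in all 6 mice, by 0.84 to 1.50 on the log2 scale within a mouse (limma log2 change −1.09, adjusted p = 0.0102), although the ranges of PAP and SCC overlapped. It was still 3.44-fold higher in SCC than in CHR (log2 change 1.72, adjusted p = 5.26e-05).

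Pgf, which encodes placental growth factor, was scarce in irradiated skin. It stood between 18.6 and 82.2 in CHR (median 45.5), between 527 and 2568 in PAP (median 985) and between 144 and 556 in SCC (median 324). As with Vegfa, no tumour overlapped the skin samples, and every carcinoma was below the papilloma of its own mouse. The papilloma exceeded the skin 23.3-fold (range 12.8 to 55.6) in normalised reads, and the log2 change of the deposited scale, which compresses low counts, was 3.29 ± 0.23 (adjusted p = 6.95e-07 in limma). From PAP to SCC the log2 change was −1.48 (adjusted p = 0.00917, limma). In normalised reads SCC stood 7.22-fold above CHR, and the log2 change of the deposited scale was 1.81 (adjusted p = 0.000116, limma). The highest papilloma was that of mouse 10, which had the lowest sums of fibroblast, myeloid and muscle markers of all 18 libraries.

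Angpt2, the ligand of TIE2 released by activated endothelium, rose in smaller steps. Its counts were 160.3 to 280.0 in CHR (median 208), 211 to 803 in PAP (median 344) and 287 to 612 in SCC (median 530). CHR and PAP overlapped and 1 of 6 mice went down, whereas all carcinomas were above all skin samples. The change was 0.68 ± 0.18 in PAP vs CHR (adjusted p = 0.00756), 0.32 ± 0.18 in SCC vs PAP (adjusted p = 0.307, not called) and 0.998 ± 0.18 in SCC vs CHR (adjusted p = 0.00115, limma).

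Vegfc, the lymphatic ligand, was not called in any comparison. It ranged from 67.4 to 159.8 in CHR (median 126), from 39.9 to 157 in PAP (median 57.2) and from 43.9 to 170.0 in SCC (median 106), and the 3 groups overlapped. The papilloma was below the skin in 5 of 6 mice (log2 change −0.45 ± 0.20, adjusted p = 0.0720 in limma). The exception was mouse 2, whose papilloma also had the most muscle reads of the papillomas, and without mouse 2 Vegfc was called lower in PAP (log2 change −0.70, adjusted p = 0.00304).

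**Figure D2:**
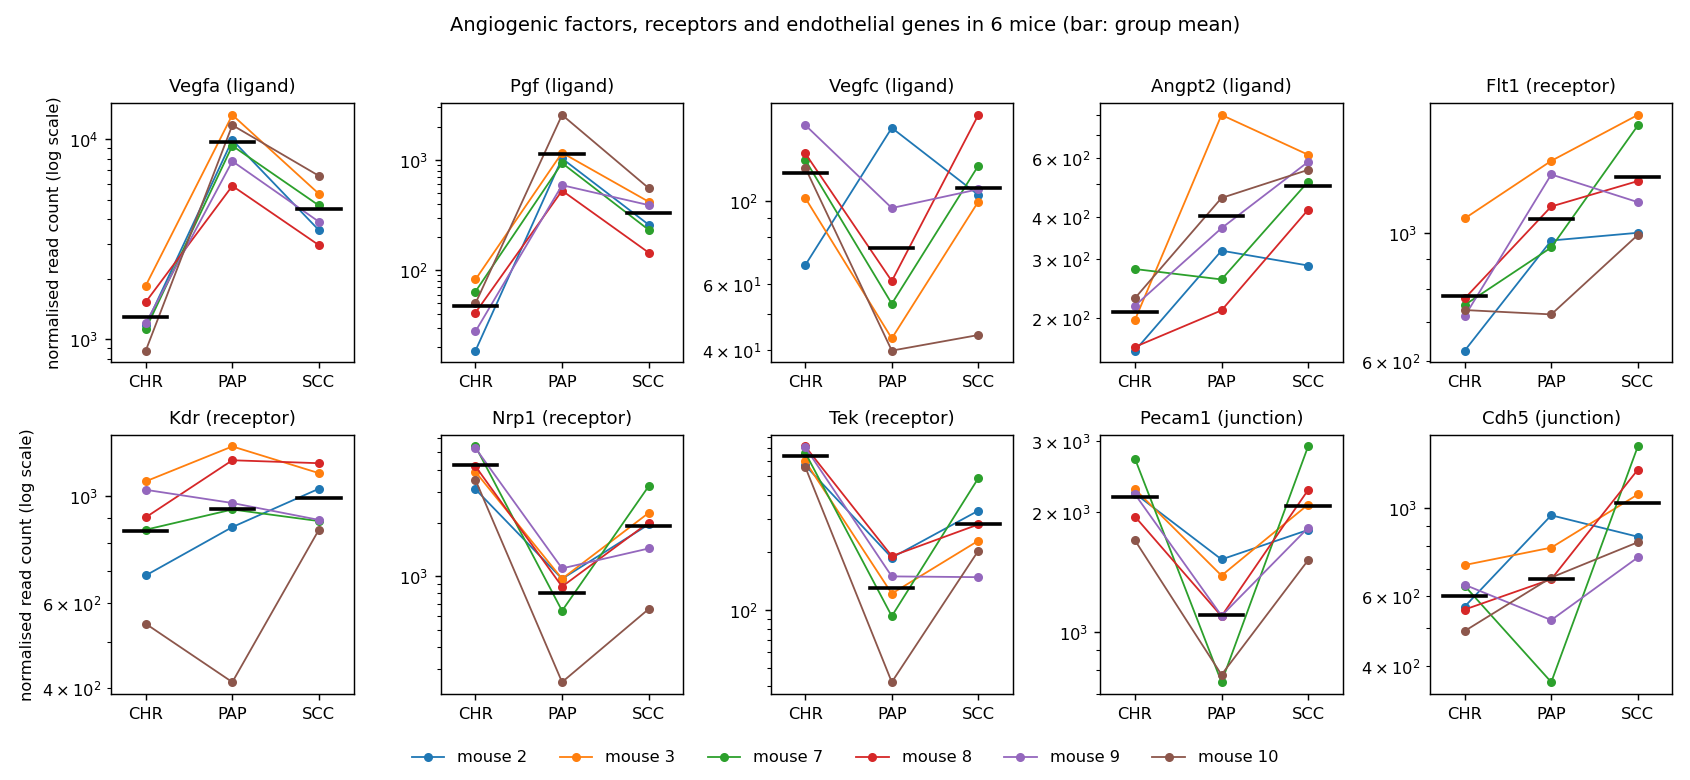
Normalised read counts (log scale) of the 10 genes in CHR, PAP and SCC, 1 line for each of 6 mice and a black bar for the group mean. Vegfa and Pgf peaked in the papilloma of every mouse, whereas Nrp1 and Pecam1 were at their lowest in the papilloma of every mouse.

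The 4 receptors did not move together. Flt1, whose product binds both VEGF-A and placental growth factor, had 624 to 1059 reads in CHR (median 742), 722 to 1332 in PAP (median 1039.8) and 991 to 1600.5 in SCC (median 1179). Ranges overlapped in every comparison, SCC vs CHR included, but the carcinoma was above the skin of its own mouse in 6 of 6 mice. Flt1 rose by 0.40 ± 0.11 on the log2 scale in PAP vs CHR (adjusted p = 0.00930) and by 0.63 ± 0.11 in SCC vs CHR (adjusted p = 0.00101, limma), and it was not called in SCC vs PAP (0.23 ± 0.11, adjusted p = 0.238).

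Kdr, the main receptor of VEGF-A on endothelium, was not called in any of the 3 comparisons. Its range was 544 to 1072 in CHR (median 877), 412 to 1266 in PAP (median 952) and 851 to 1169 in SCC (median 964). These ranges overlapped almost fully. The log2 changes in limma were 0.10 ± 0.14 (PAP vs CHR, adjusted p = 0.577), 0.13 ± 0.14 (SCC vs PAP, adjusted p = 0.607) and 0.23 ± 0.14 (SCC vs CHR, adjusted p = 0.206). The 412 reads of the papilloma of mouse 10 lay well below the other 5 papillomas, which had 862 to 1266.

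Nrp1, the co-receptor, had the most reads of the receptors in skin and lost most of them in the papilloma. It stood between 3093 and 5400 in CHR (median 4025), between 253 and 1107 in PAP (median 921) and between 653 and 3217 in SCC (median 1984). All papillomas were below all skin samples, and in every mouse the carcinoma lay between the papilloma and the skin. CHR exceeded PAP 5.69-fold in normalised reads within mice, and the limma log2 change of the deposited scale was −2.37 ± 0.25 (adjusted p = 6.41e-06). Nrp1 rose again by 1.16 ± 0.25 in SCC vs PAP (adjusted p = 0.0152) and stayed lower in SCC than in CHR (−1.21 ± 0.25, adjusted p = 0.00215).

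Tek followed a similar course. Its counts were 559.6 to 716 in CHR (median 632), 42.0 to 191 in PAP (median 136) and 148 to 489 in SCC (median 255). Neither kind of tumour overlapped the skin, whose 6 samples spread by a CV of only 10.9%. In normalised reads within mice, the level in CHR was 5.42-fold that in PAP and 2.43-fold that in SCC. On the compressed deposited scale, the limma log2 changes were −1.88 ± 0.21 in PAP vs CHR (adjusted p = 9.68e-06) and −1.07 ± 0.21 in SCC vs CHR (adjusted p = 0.00154). The rise from PAP to SCC was 0.81 ± 0.21 (adjusted p = 0.0271), seen in 5 of 6 mice. This call was lost in 6 of 14 alternatives, among them those without mouse 3 (adjusted p = 0.0825), mouse 7 (0.138), mouse 8 (0.0968) or mouse 10 (0.0543).

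The ligands of this receptor diverged in PAP vs CHR. Angpt1, the activating ligand of TIE2 made by mural and stromal cells and named here after its values were seen, averaged 263 ± 41.7 reads in CHR, 26.9 ± 22.6 in PAP and 136 ± 73.1 in SCC (SD, n = 6). It fell by 1.99 in PAP vs CHR (adjusted p = 7.52e-06) and rose by 1.18 in SCC vs PAP (adjusted p = 0.0101, limma), while Angpt2 rose in PAP as given above. Angpt4, a further angiopoietin gene also named after its values were seen, fell by 1.97 in PAP vs CHR (adjusted p = 3.87e-05, limma). In SCC vs PAP neither Angpt4 (0.62, adjusted p = 0.149, limma) nor Angpt2 (0.32) was called.

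The 2 junction genes, often read as measures of vessel content, differed from each other. Pecam1 stood between 1694 and 2713 in CHR (median 2215), between 748 and 1518 in PAP (median 1095) and between 1510.4 and 2912 in SCC (median 1951). The papillomas lay below all skin samples, and the carcinomas covered the range of the skin. Pecam1 fell by 0.96 on the log2 scale in PAP vs CHR (SE 0.17, adjusted p = 0.000361), rose by 0.87 in SCC vs PAP (adjusted p = 0.0108) and was not called in SCC vs CHR (−0.09, adjusted p = 0.706, limma).

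Cdh5, which encodes the cadherin of endothelial junctions, had no such dip. It stood between 490.5 and 718 in CHR (median 601), between 365 and 957 in PAP (median 665) and between 750.4 and 1425 in SCC (median 963). The papilloma was above the skin in 4 of 6 mice and below it in 2, and every carcinoma exceeded every skin sample. The log2 change was 0.08 ± 0.20 in PAP vs CHR (adjusted p = 0.754), 0.60 ± 0.20 in SCC vs PAP (adjusted p = 0.0726, not called) and 0.68 ± 0.20 in SCC vs CHR (adjusted p = 0.0159, limma). The last call was lost without mouse 8 (adjusted p = 0.0670).

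Relative to Cdh5, the reads of Pecam1 and of the 4 receptors changed by unequal amounts. Pecam1 had 3.63 ± 0.396 reads for each read of Cdh5 in CHR, 1.72 ± 0.340 in PAP and 2.03 ± 0.227 in SCC (SD, n = 6), and neither kind of tumour overlapped the skin. Tek had 1.07 ± 0.151, 0.207 ± 0.0885 and 0.270 ± 0.0785 reads for each read of Cdh5 in the same order, again without overlap between skin and tumour. Nrp1 went the same way, with 7.04 ± 1.33, 1.30 ± 0.602 and 1.83 ± 0.569. Kdr had 1.40 ± 0.213, 1.55 ± 0.704 and 1.01 ± 0.217, and Flt1 had 1.29 ± 0.180, 1.74 ± 0.654 and 1.24 ± 0.212, both with overlapping ranges. So the members that fell in papillomas did so also relative to Cdh5, a description for which no test was run. Cdh5 itself hardly changed in PAP vs CHR (log2 change 0.08), so these ratios largely repeat the fall of each gene. Of 24 further endothelial markers, 15 also fell in PAP vs CHR (median −0.45), so Cdh5 does not stand for all endothelial genes. Nrp1 is also carried by many other cells, and ratios in bulk tissue do not give the make-up of the endothelium.

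**Figure D3:**
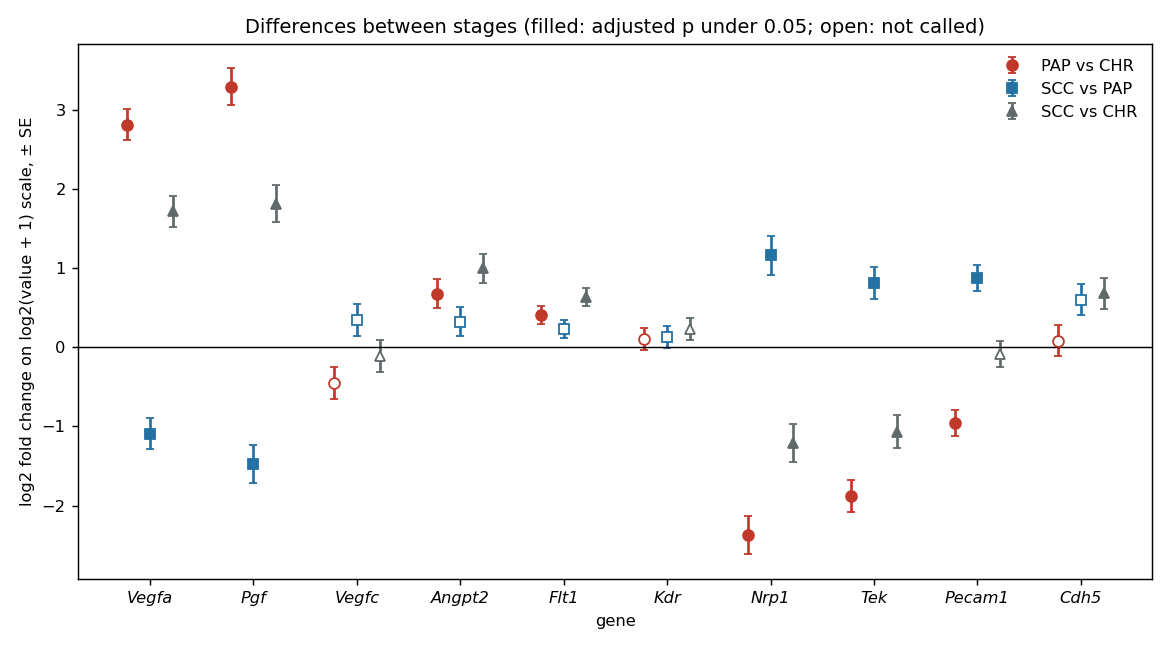
Log2 fold change ± SE of the 10 genes in PAP vs CHR, SCC vs PAP and SCC vs CHR from limma; filled symbols have an adjusted p under 0.05. In PAP vs CHR, 4 genes lie above 0 and 3 below among those called, from Pgf (3.29) to Nrp1 (−2.37).

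The second comparison asked how carcinomas differ from papillomas of the same mice. It shares its papillomas with the first, and SCC vs CHR shares its libraries with both, so the values stand side by side and do not support one another. In SCC vs PAP, 5 of 10 genes were called against 9.85% of all genes. Nrp1, Pecam1 and Tek rose, as did 8.75% of all genes, and Vegfa and Pgf fell, as did 1.10% of all genes. The median log2 change was 0.33 over the 10 genes and −0.02 over all genes. The ranges of PAP and SCC overlapped for each of the 10, and the share of all genes with separate ranges was not computed.
These calls were the least firm. Without mouse 7, without mouse 8, or with only PAP and SCC in the fit, 0 of the 10 genes and 0 genes of the whole table passed in limma, although 6 of the 10 had an unadjusted p under 0.05 in each of these fits, and limma-voom on the recovered reads of all mice called 5. Without mouse 3 the calls of Nrp1 (adjusted p = 0.0510) and Tek (0.0825) were lost. The direction of the changes held over 14 alternatives. Their size ran from −1.22 to −1.01 for Vegfa, −1.71 to −1.36 for Pgf, 0.96 to 1.33 for Nrp1, 0.60 to 1.15 for Tek and 0.68 to 1.001 for Pecam1.

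In SCC vs CHR, 7 of 10 genes were called, where 38.4% of all genes were. Vegfa, Pgf, Angpt2, Flt1 and Cdh5 rose (15.8% of all genes rose), and Nrp1 and Tek fell (22.7% of all genes fell). The median log2 change was 0.43 over the 10 genes and −0.02 over all genes. With mouse 10 left out, 7, 4 and 7 of the genes were called in PAP vs CHR, SCC vs PAP and SCC vs CHR, and with only its carcinoma left out, 7, 5 and 7.

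The third question was how the ligands stand against the endothelium. For each library, the reads of a ligand were divided by those of Cdh5, the ratio was compared within mice by an exact two-sided permutation test over 6 mice, and p-values were adjusted over 12 comparisons. This exact permutation test cannot go below p = 0.0312, and after adjustment none of the 12 passed 0.05 (lowest 0.0625). Vegfa had 2.15 ± 0.430 reads for each read of Cdh5 in CHR, 15.6 ± 5.93 in PAP and 4.66 ± 1.95 in SCC (SD, n = 6). The ratio was higher in PAP than in CHR in 6 of 6 mice, by 6.97-fold, and lower in SCC than in PAP in 6 of 6 mice (each exact permutation p = 0.0312, adjusted 0.0625). In SCC it was above that of the skin in 5 of 6 mice (2.05-fold, exact permutation p = 0.0625, adjusted 0.0938).

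Reads of Pgf for each read of Cdh5 numbered 0.0778 ± 0.0336 in CHR, 1.81 ± 1.17 in PAP and 0.362 ± 0.214 in SCC. The order of the 3 samples was the same in all 6 mice, with the papilloma highest and the skin lowest. Angpt2 for each read of Cdh5 was 0.350 ± 0.0835, 0.628 ± 0.263 and 0.508 ± 0.191, higher in PAP than in CHR in 6 of 6 mice and split 3 to 3 between SCC and PAP. Vegfc for each read of Cdh5 was 0.201 ± 0.0576, 0.117 ± 0.0553 and 0.106 ± 0.0343, and the ratio was lower in PAP than in CHR in 5 of 6 mice (log2 difference −0.88, exact permutation p = 0.0938, adjusted 0.125). That direction depended on the gene used for endothelium, since the difference was 0.21 with Pecam1 and −0.067 with the mean of the other endothelial markers.
With Pecam1 in place of Cdh5, the ratios of Vegfa, Pgf and Angpt2 went the same way in every mouse in all 3 comparisons. These 9 of 12 exact permutation tests were at the lowest p possible with 6 mice, hence their shared adjusted p of 0.0417. Pecam1 itself fell in PAP vs CHR and rose in SCC vs PAP in 6 of 6 mice, which moves every ratio the other way. Angpt2 itself was higher in SCC than in PAP in 4 of 6 mice, although its ratio to Pecam1 fell. With Pecam1, the difference of Vegfa in PAP vs CHR was 3.90 on the log2 scale, against 2.80 with Cdh5.

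**Figure D4:**
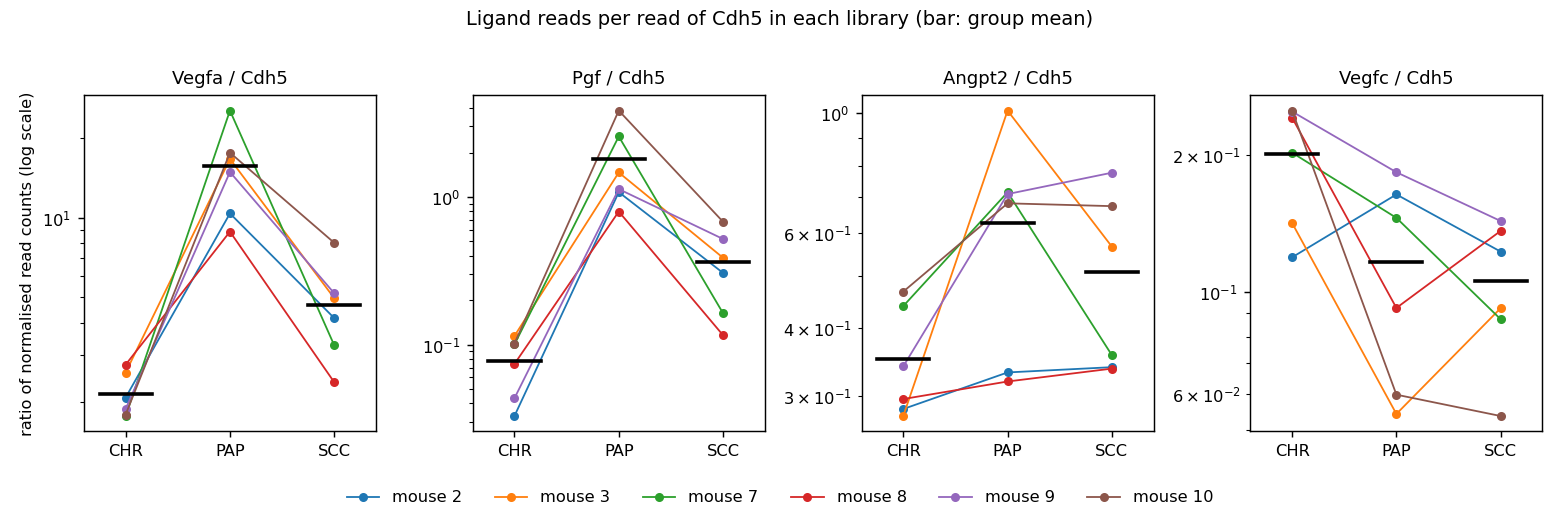
Reads of each ligand divided by reads of Cdh5 (log scale) in CHR, PAP and SCC, 1 line for each of 6 mice and a black bar for the group mean. For Vegfa the papillomas lie between 8.84 and 25.4, above all skin samples (1.77 to 2.77) and all carcinomas (2.37 to 8.02).

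Levels of different genes were compared only as normalised reads per kb of exon. In CHR, Nrp1 (431 ± 96.2), Pecam1 (349 ± 55.0) and Vegfa (302 ± 80.8) led, and these 3 did not differ beyond the sum of their SDs. Cdh5 (143 ± 19.1) and Tek (135 ± 14.8) followed below them, then Kdr (93.9 ± 22.4), then Flt1, Angpt2 and Vegfc close together, and Pgf was last (16.3 ± 8.07). In PAP, Vegfa led with 2250.0 ± 622 per kb, beyond the spread of Pgf in second place (391 ± 256), while Tek was last (27.8 ± 12.2), next to Vegfc (30.6 ± 18.3). In SCC, Vegfa (1047 ± 309) was again first beyond the spread, and each of the others differed from its neighbour in the order by less than the sum of their SDs, from Pecam1 (332 ± 78.5) down to Vegfc (44.2 ± 16.7).

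The likeness of other genes was read from Pearson's r of log2(value + 1) over the 18 libraries, which come in 3 groups and 3 to a mouse, so that r is high for any pair that shares the group pattern, and it is given as a description. Closest to Vegfa were Ndrg1 (r = 0.971), Procr (0.968), Cenpp (0.965), Pgf (0.963) and Arhgef39 (0.960). Closest to Pgf were Procr (0.969), Vegfa (0.963), Prelid2 (0.962), Nusap1 (0.958) and Ndrg1 (0.955). Cdh5 had no such close companions, and its nearest were Myh7 (0.821), Fam167b (0.812), Nlk (0.806), BC018507 (0.803) and Bcl6b (0.797). The r of Myh7 rests on very low counts, with means of 0.633 reads in CHR, 3.98 in PAP and 24.4 in SCC. Ndrg1 is a gene induced by low oxygen, Procr encodes the receptor of protein C, and Nusap1 acts on the mitotic spindle.

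Other genes of these pathways came from lists that overlap in part (Apln, for example, is on the lists of ligands and of tip cell genes, and Angpt2 itself is on the latter). Their counts stand beside 52.6% of all genes called in PAP vs CHR, 9.85% in SCC vs PAP and 38.4% in SCC vs CHR. The hypoxia list, with Hif1a, its regulators and genes induced by low oxygen, was mostly higher in papillomas. Of its 19 genes, 17 rose and 1 fell in PAP vs CHR (median log2 change 1.37, all genes 0.00), 0 rose, 3 fell and 16 were not called in SCC vs PAP, and 14 rose and 5 were not called in SCC vs CHR. Ndrg1 averaged 2662 ± 810 reads in CHR and 21672 ± 6515 in PAP, and Slc2a1, the glucose transporter GLUT1, averaged 2970.4 ± 1388 and 18625 ± 9023. Hif1a, the oxygen-regulated subunit, rose by 1.64 in PAP vs CHR (adjusted p = 6.85e-05), whereas Epas1, its relative expressed in endothelium, fell by 0.53 (adjusted p = 0.0384, limma). Car9, a carbonic anhydrase induced by low oxygen, rose by 2.33 in PAP and dropped by 1.14 from PAP to SCC (adjusted p = 0.0115).

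Of the other 16 angiogenic ligands, most were lower in papillomas. In PAP vs CHR, 10 fell, 2 rose and 4 were not called (median −1.12), in SCC vs PAP 6 rose and 0 fell, and in SCC vs CHR 2 rose and 7 fell. The 2 that rose in PAP were Adm (adrenomedullin, 2.27 ± 0.48, adjusted p = 0.00164) and Apln (apelin, 2.23 ± 0.16, adjusted p = 7.87e-07, limma). Cxcl12, a stromal chemokine, fell most, from 3901 ± 546 reads in CHR to 209 ± 179 in PAP (log2 change −4.07, adjusted p = 7.62e-06). Among 11 angiogenesis inhibitors measured, 2 rose and 3 fell in PAP vs CHR, no larger a share than the 52.6% called over all genes. Col18a1, whose product is the source of endostatin, rose by 1.15 (adjusted p = 0.000173), and Timp3, a matrix-bound inhibitor of metalloproteinases, fell by 1.97 (adjusted p = 9.16e-05). Thbs2, encoding thrombospondin 2, was not called in PAP vs CHR (−0.11, adjusted p = 0.802) and rose by 1.49 in SCC vs PAP (adjusted p = 0.0183).

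Of 16 further vascular receptors and signalling partners, 9 fell and 3 rose in PAP vs CHR, and 4 rose in SCC vs PAP. In SCC vs CHR 3 rose and 3 fell, no larger a share than the 38.4% called over all genes. The 3 that rose in PAP were Jag1 (1.34), Dll4 (0.81) and Notch4 (0.71), the last 2 named after their values were seen. Notch1, on the same list, was not called (0.02, adjusted p = 0.938 in limma, higher in 2 of 6 mice). Of 10 sprouting genes, typical of the tip cells that lead a new vessel, 6 rose and 1 fell in PAP vs CHR, 0 were called in SCC vs PAP in limma, and 6 rose in SCC vs CHR. Apln averaged 56.8 ± 23.3 reads in CHR, 499 ± 125 in PAP and 420 ± 105 in SCC, and Cxcr4, the receptor of CXCL12, was the 1 that fell (−1.04, adjusted p = 0.0107).

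The 24 further endothelial markers, all with reads in all 18 libraries, were mostly lower in papillomas. In PAP vs CHR 15 fell, 1 rose and 8 were not called (median −0.45), and in SCC vs PAP 11 rose, 0 fell and 13 were not called (median 0.46). In SCC vs CHR 2 rose and 5 fell (median −0.12), no larger a share than the 38.4% called over all genes. Their summed counts were 13895 to 22256 in CHR, 7124 to 12228 in PAP and 10141 to 18806 in SCC. Emcn, encoding endomucin of veins and capillaries, was the 1 that rose in PAP (0.83 ± 0.12, adjusted p = 8.24e-05). Fli1, an ETS factor of endothelial and blood cells, fell most (−1.88 ± 0.16, adjusted p = 1.62e-06), and Gpihbp1, the capillary anchor of lipoprotein lipase, rose most from PAP to SCC among the called genes (1.11 ± 0.16, adjusted p = 0.00917, limma). Beside these, 8 of 8 myeloid markers fell in PAP vs CHR and 6 rose in SCC vs PAP (sums of 40775 to 64243 in CHR, 1375 to 7643 in PAP and 4109 to 59825 in SCC), and 6 of 7 dermal fibroblast markers fell in PAP and 3 rose in SCC vs PAP (sums of 137896 to 306445, 4783 to 160770 and 17216 to 496273). In SCC vs PAP, 9 of 10 muscle markers rose and 0 of 7 adipocyte markers were called in limma. Most muscle, fat, fibroblast and myeloid markers thus fell where Nrp1, Tek and Pecam1 fell, and most muscle and myeloid markers rose where these 3 rose, and their part in these results was not tested.

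**Figure D5:**
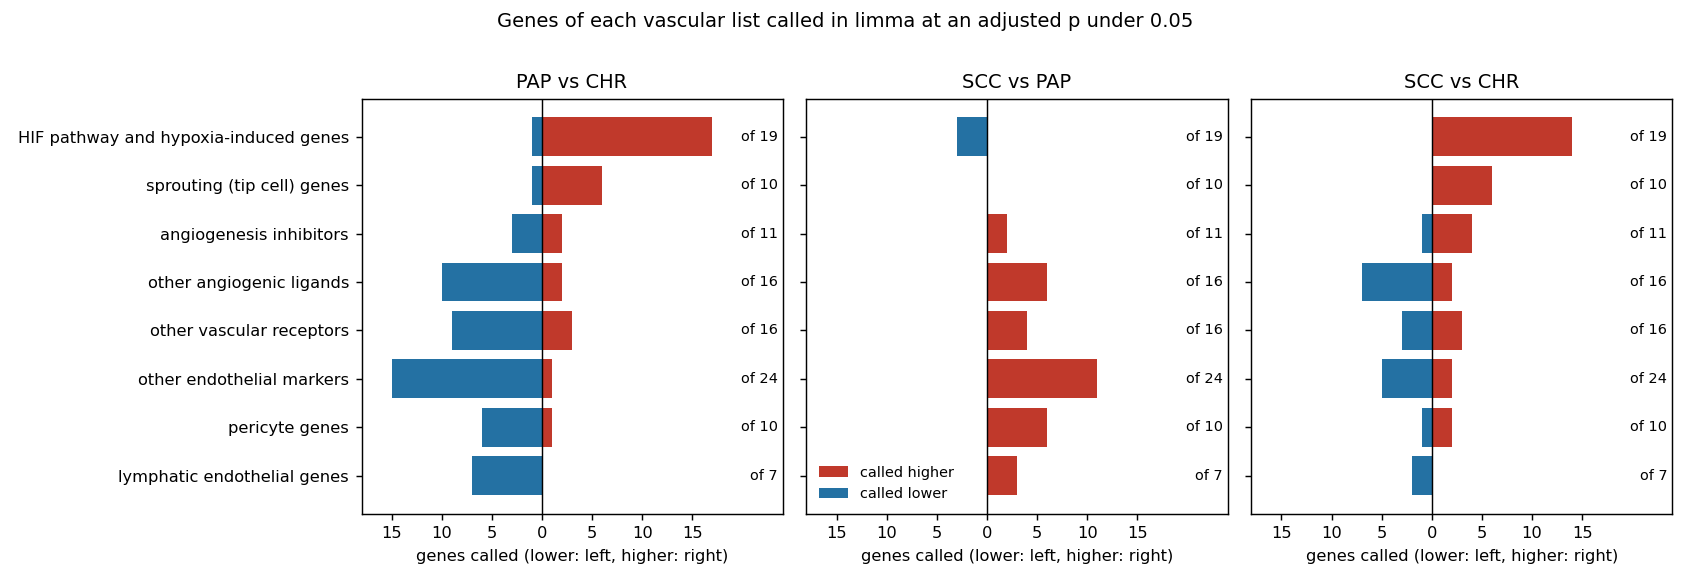
Number of genes called higher (red, right) or lower (blue, left) in limma in each of 8 vascular lists, with the number measured at the right, for the 3 comparisons. In PAP vs CHR the hypoxia list is almost wholly to the right (17 of 19), and the endothelial marker list mostly to the left (15 of 24).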

How the data were processed

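RNA of 6 mice, 3 tissues each, was sequenced on an Illumina HiSeq. The authors aligned reads to mm10 (GRCm38) with MOSAIK, counted them with HTSeq, applied scaling factors and the DESeq2 variance-stabilising transformation, and deposited the result rounded on a linear scale, a score in which 0 reads appear as 39. The annotation, strandedness and software versions were not given in the sources used here. Of 14542 entries, 21 had a number for a symbol (at most 0.241% of reads) and were left out. The transformation was inverted (zero level 39.13, size factors 0.835 to 1.18). Of all values, 99.6% could be written as whole reads, and 100% of values under 100. High values cannot fail this check in libraries with a size factor above 1, where steps of 1 read are finer than the rounding. In simulated data with known reads, 83.1% of counts came back exactly. The study's methods also describe a per-gene scaling of batch medians. Whether it was applied to this table is not given in the sources used here. Low values could be written as whole reads with 1 factor per library and no factor per gene, a check that says little about high values. Low scores are compressed, so fold changes of low genes are understated.

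Samples were grouped by their titles. limma 3.58.1 (R 4.3.3) was run on log2(value + 1) over 14521 genes and all 18 libraries, with the mouse as a block, two-sided, with Benjamini-Hochberg adjustment, and was tested on simulated data. The 3 samples of a mouse share its number; deviations from the group means correlated with a median r of 0.10 within mice (−0.24 to 0.51) and 0.00 between mice. Each tumour is 1 library, so p-values cover variation between mice. No 2 libraries shared more than 2.24% of values. Ratios used exact permutation tests (scipy 1.17.1). Exon lengths and positions came from GENCODE on GRCm38, promoters from RefSeq.

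The genes and lists were chosen with earlier results of these data known. All 10 members were named, with the 3 genes of each list with the most reads, its called genes with the largest changes in PAP vs CHR and SCC vs PAP, and 5 genes most like Vegfa, Pgf and Cdh5. Alternatives were no block, limma-voom, a pseudocount of 16, normalised counts, a minimum mean of 10 reads, quantile normalisation, the 2 groups alone and leaving out each mouse. Of the listed genes, 2 (an angiogenesis inhibitor and a lymphatic gene) had no entry.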

Additional observations from a re-analysis of the deposited data

Results flagged for a closer look

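In 42 groups of 6 samples, 2 held a sample set apart from the rest by its gap to the nearest value, where chance gives about 1 in 20. Both were the papilloma of mouse 10, with 412 normalised reads of Kdr against 862 to 1266 in the other 5 papillomas, and 253 of Nrp1 against 638 to 1107. Without mouse 10, the call of Nrp1 in PAP vs CHR remained and Kdr was not called.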

How the results depend on the processing

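Of 420 values, that is, 10 genes in 3 comparisons under 14 alternatives, 393 kept direction and call, 20 lost the call, 2 gained it and 5 changed sign. Without the replicate block, all 30 calls were the same, but SCC vs PAP gave 810 called genes over the table against 1430, and the cause was not tested. With only PAP and SCC in the fit, which has fewer samples, 0 genes and 0 of the members were called. Leaving out each mouse in turn gave 0 to 1995 genes and 0 to 6 of the members in SCC vs PAP, with the zeros without mouse 7 or mouse 8, 471 genes without mouse 3 and 1608 without mouse 9. Leaving out only the carcinoma of mouse 10, an alternative chosen after seeing the data, gave 2084 genes and changed none of the 30 calls of the members. Quantile normalisation moved the median of all genes by 0.16 (log2) in PAP vs CHR and the share of higher genes among calls from 44.4% to 62.4% there, from 88.8% to 68.5% in SCC vs PAP and from 41.0% to 57.8% in SCC vs CHR. It turned Vegfc in PAP vs CHR (0.041) and SCC vs CHR (0.12) and ended the call of Tek in SCC vs PAP (adjusted p = 0.0533). Uncalled values also turned without 1 mouse, namely Cdh5 in PAP vs CHR (−0.041 without mouse 2, up to 0.24 without the others), Kdr in SCC vs PAP (−0.025 without mouse 10, up to 0.19) and Vegfc in SCC vs CHR (0.034 without mouse 10, down to −0.21).

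With Pecam1 in place of Cdh5, the log2 ratio differences in PAP vs CHR, SCC vs PAP and SCC vs CHR became 3.90, −2.03 and 1.87 for Vegfa, 5.56, −2.62 and 2.94 for Pgf and 1.85, −0.53 and 1.32 for Angpt2, all then with an adjusted exact permutation p of 0.0417, and 0.21 for Vegfc in PAP vs CHR, which changed sign. That p is shared because each of these tests was at the lowest p it can give, and Pecam1 itself fell in PAP vs CHR. With the mean of the other endothelial markers the differences moved to 3.62 and 1.86 (Vegfa, PAP vs CHR and SCC vs CHR), 5.28 (Pgf, PAP vs CHR), 1.57 and 1.30 (Angpt2) and −0.12 (Vegfc, SCC vs CHR). The recovered total of 15.4 to 21.0 M counted reads per library limits the precision of the lowest values, such as Pgf in CHR (18.6 to 82.2 normalised reads) and Vegfc and Tek in PAP (from 39.9 and 42.0).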

Other observations

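Genes of lymphatic endothelium were lower in papillomas. Of 7 lymphatic endothelial genes measured, 7 fell in PAP vs CHR (median log2 change −1.41) and 3 rose in SCC vs PAP. In SCC vs CHR 2 fell, no larger a share than the 38.4% called over all genes. Mmrn1, encoding a multimerin of lymphatic endothelium, averaged 637 ± 115 reads in CHR, 54.6 ± 46.4 in PAP and 213 ± 144 in SCC (SD, n = 6; PAP vs CHR −2.66, adjusted p = 2.06e-05 in limma). Pdpn, which encodes podoplanin and is also made by fibroblasts and tumour keratinocytes, fell by 1.68 in PAP vs CHR (adjusted p = 0.00889) and rose by 1.64 in SCC vs PAP (adjusted p = 0.0434).

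Of 10 pericyte genes, 6 fell and 1 rose in PAP vs CHR, and 6 rose in SCC vs PAP. In SCC vs CHR 2 rose and 1 fell, no larger a share than the 38.4% called over all genes. Their summed counts overlapped, with 9988 to 12219 in CHR, 6939 to 17003 in PAP and 9692 to 17232 in SCC. Rgs5, a regulator of G protein signalling in mural cells, averaged 3276 ± 265 reads in CHR, 1279 ± 827 in PAP and 2594 ± 1003 in SCC, and Pdgfrb, the receptor through which PDGF-B recruits pericytes, averaged 2527 ± 614, 879 ± 698 and 3358 ± 1744. Abcc9, a channel subunit of mural cells, fell most in PAP (−2.08, adjusted p = 0.000152, limma). The 1 that rose was Ndufa4l2, a gene also induced by low oxygen, with 663 ± 276 reads in CHR and 4601 ± 2123 in PAP (2.60 ± 0.47, adjusted p = 0.000543).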
